A study of Mus musculus with 12 samples.

Results

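The HoxC cluster comprises Hoxc4, Hoxc5, Hoxc6, Hoxc8, Hoxc9, Hoxc10, Hoxc11, Hoxc12 and Hoxc13, and its expression was compared between arrays labelled tail and arrays labelled back in neonatal mouse dermis. A gene was measured by the probe sets that carry its symbol and no other in the platform annotation. Of the 9 genes, 7 had such probe sets, which makes 7 of 18193 measured genes and 11 of 45037 probe sets. Hoxc11 and Hoxc12, and Hotair, the long non-coding RNA encoded between them, are not analysed here.

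The study examined why the capacity to form new hair follicles in wounds differs with age and body site. Dermis of C57Bl6/CBA F1 mice was profiled at day 1 and day 5 after birth (P1 and P5) in 4 groups of 3 arrays, which carry the site label tail or back at each age. The labels name no transgene, mutant allele or drug for any group. RNA came from suspensions of all dermal cells, and P1 tail skin had been loosened with EDTA but P1 back skin with dispase and trypsin, so that body site and this solution cannot be told apart. Each array was taken as 1 mouse, which the methods state for P1 only, and elsewhere the p-values measure the spread between arrays.

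Hox genes encode homeodomain transcription factors that give cells a positional identity along the head-to-tail axis. Within a cluster, the genes toward the 3′ end are generally active further forward in the embryo and those toward the 5′ end further back, and dermal fibroblasts retain much of this pattern after birth. Hoxc13, at the 5′ end, also acts in the hair follicle, where it regulates hair keratin genes.

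The cluster lies on chromosome 15 with Hoxc13 first, followed by Hoxc12, Hoxc11, Hoxc10, Hoxc9, Hoxc8, Hoxc6, Hoxc5 and Hoxc4. It also encodes the microRNAs miR-196a and miR-615. In the order of gene starts, miR-196a comes after Hoxc10 and before Hoxc9, and miR-615 after Hoxc5 and before Hoxc4. Whether either lies inside a longer gene was not examined. The microRNAs are shown because miR-196 is known to target Hox transcripts, Hoxc8 among them, and because both lie within the cluster. Their values are not analysed here. The mature sequences, from RefSeq on GRCm38.p6, are given 5′ to 3′ with the seed (bases 2 to 8) in capitals, and lie at chr15:102973365-102973386 and chr15:103014969-103014990 on the plus strand.
mmu-miR-196a-5p: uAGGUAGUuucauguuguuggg
mmu-miR-615-3p: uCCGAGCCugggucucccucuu

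The RefSeq promoter table held 1 of the 9 genes, Hoxc4, which was among the members higher in the arrays labelled tail at both ages. Its 250 bases upstream of the start, chr15:103034145-103034394 on the plus strand of GRCm38.p6, are shown with matches to TAAT, the core of many homeodomain sites, and GGGCGG, a GC box, in capitals. Both motifs were searched on both strands and did not overlap. The window had 62.0% G and C and 8 CG dinucleotides, with 1 match to each motif. Of 32851 promoter windows of this length, 54.9% held TAAT and 32.7% held GGGCGG, so that neither match sets Hoxc4 apart.
Hoxc4 promoter: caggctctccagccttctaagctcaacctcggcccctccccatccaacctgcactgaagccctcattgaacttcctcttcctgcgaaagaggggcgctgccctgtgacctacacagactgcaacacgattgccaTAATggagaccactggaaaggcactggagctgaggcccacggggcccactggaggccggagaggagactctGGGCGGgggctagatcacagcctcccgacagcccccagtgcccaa

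The deposited values are log2 signals centred on the median of each probe set over the 12 arrays, so they give differences between arrays but no level, and no detection above background could be assessed. Every site difference is given as arrays labelled tail minus arrays labelled back, and this direction opposes that of the study for genes of fat. All 8 measured genes of the 10-gene adipocyte list were higher in the arrays labelled tail at P1, with a median difference of 2.68. Krt2, taken from a list of 4 tail scale keratins, differed by -7.57 at P1 and by -3.96 at P5. Of these 4 keratins, 1 was lower at P1 and 2 at P5, with 0 higher at either age. Of 11 measured HoxA, HoxB and HoxD genes numbered 9 to 13, toward the 5′ end, 9 were lower in labelled tail at each age. Whether the labels were exchanged was not tested, and groups are therefore named by their labels throughout. Exchanging tail and back at both ages would turn the sign of each site difference and leave its size and p-value as they are. Of the 8 dermal fibroblast markers, 2 passed at P1, both higher in the arrays labelled tail (Col3a1 and Dpt, median -0.02 over the 8), and 3 were higher (Dpt, Lum and Twist2) and 1 lower (Col1a2) at P5 (median 0.13). The arrays labelled P1 back replicates 1 and 6 stood apart by the mean of 13 cartilage genes (2.14 and 1.84, against 0.06 in replicate 5), as did P5 back replicate 3 (0.84), and P5 tail replicate 2 had an interquartile range of 0.558 over all probe sets against 0.185 to 0.313 in the other arrays. In these bulk samples, fewer cells of a type and less RNA per cell cannot be told apart.

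At P1, Hoxc8, Hoxc4 and Hoxc5 were higher in the arrays labelled tail, Hoxc10 was lower, and Hoxc6, Hoxc9 and Hoxc13 did not pass the test. By limma with Benjamini-Hochberg adjustment over all genes at 0.05, 3 of 7 members were higher, against 2.06% of all genes, and 1 was lower, against 1.91% of all genes. At P5 the members higher in the arrays labelled tail were again Hoxc8, Hoxc4 and Hoxc5, and Hoxc13 was the member that was lower. This made 3 of 7 higher, against 4.30% of all genes, and 1 lower, against 2.61% of all genes. The 3 arrays of each site did not overlap for 5 of 7 members at P1, where this held for 30.2% of all genes, and for 5 of 7 at P5, where it held for 20.6%.

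**Figure D1:**
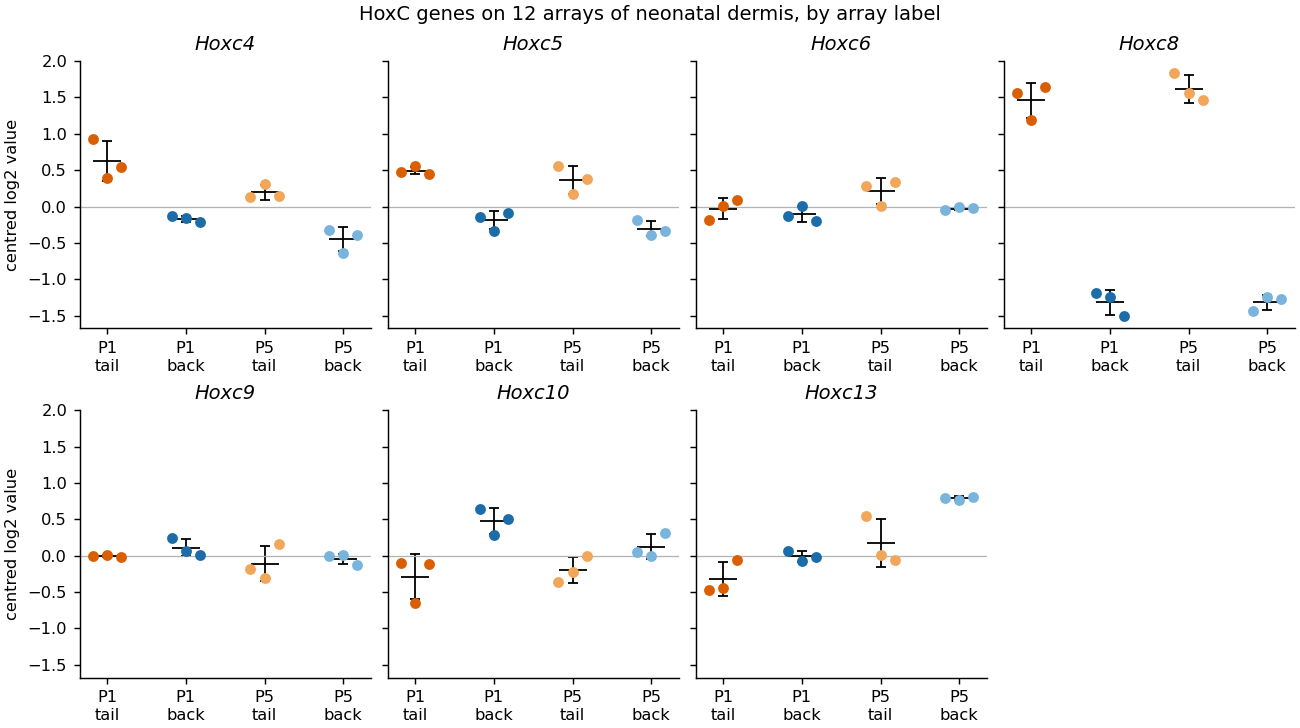
Centred log2 value of each measured HoxC gene (y axis) on the 12 arrays, grouped by label (x axis). Points are arrays, horizontal lines are group means and bars are 1 SD of 3 arrays. Hoxc8 lies between 1.19 and 1.83 in the 6 arrays labelled tail and between -1.51 and -1.19 in the 6 labelled back, while Hoxc9 spans only -0.31 to 0.24 over all arrays.

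Hoxc8, which helps to specify thoracic identity of the skeleton and limb-level motor neurons, had the largest site difference of the cluster. In the arrays labelled tail it read 1.56, 1.19 and 1.64 at P1 and 1.83, 1.56 and 1.47 at P5. In those labelled back it read -1.19, -1.24 and -1.51 at P1 and -1.44, -1.24 and -1.27 at P5. All 6 arrays labelled tail lay above all 6 labelled back, with no overlap at either age. The difference was 2.78 (SE 0.14, adjusted p = 5.02e-07) at P1, a 6.85-fold difference, and 2.93 (SE 0.14, adjusted p = 2.83e-07) at P5, a 7.64-fold difference. Among 18193 genes Hoxc8 ranked 25 by size and 3 by p at P1, and 15 by size and 3 by p at P5.

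The Hoxc8 group means were 1.62 ± 0.19 (SD of 3 arrays) in P5 tail, 1.46 ± 0.24 in P1 tail, -1.31 ± 0.17 in P1 back and -1.32 ± 0.11 in P5 back. Neighbours in this order within a site differed by less than their spread. At P1 the adipocyte genes were also higher in the arrays labelled tail, with list means of 1.15 to 1.75 against -1.25 to -1.24. At P5 those means were 0.01 to 0.38 against -0.46 to -0.06. The part of adipocyte content in the Hoxc8 difference was not tested. Without the 3 arrays that stood apart by cartilage genes, which leaves 1 array in P1 back, the difference was 2.70 at P1 and 2.96 at P5. Calls over all genes were fewer in this fit, so a call lost in it, here or below, is no result about cartilage. By the methods' t-test with adjustment, Hoxc8 missed the threshold at P1 (adjusted p = 0.059).

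Hoxc4 lies at the 3′ end of the cluster and is known from the neck and upper trunk of the embryo. Its values were 0.93, 0.39 and 0.55 in P1 tail against -0.13, -0.16 and -0.21 in P1 back. At P5 they were 0.13, 0.32 and 0.15 in the arrays labelled tail against -0.32, -0.64 and -0.39 in those labelled back. At each age every array labelled tail lay above every array labelled back. The difference was 0.79 (SE 0.14, adjusted p = 0.00496) at P1, or 1.73-fold, and 0.65 (SE 0.14, adjusted p = 0.0124) at P5, or 1.56-fold. The order of the group means was P1 tail at 0.62 ± 0.28 (SD of 3 arrays), P5 tail at 0.20 ± 0.10, P1 back at -0.17 ± 0.04 and P5 back at -0.45 ± 0.17. At P5 the call was lost without P5 back replicate 2 (0.55, adjusted p = 0.0663). Without the 3 cartilage-high arrays, which leaves 1 array in P1 back, it was lost at both ages at differences of similar size (0.78 at P1 and 0.68 at P5).

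Hoxc5, the neighbour of Hoxc4, was averaged over 3 probe sets. It read 0.48, 0.55 and 0.45 in P1 tail against -0.14, -0.33 and -0.09 in P1 back. At P5 the values were 0.56, 0.17 and 0.37 in the arrays labelled tail against -0.18, -0.39 and -0.34 in those labelled back. The arrays labelled tail were again above those labelled back without overlap. Hoxc5 differed by 0.68 (SE 0.12, adjusted p = 0.00451) at P1, which is 1.61-fold, and by 0.67 (SE 0.12, adjusted p = 0.00393) at P5, which is 1.59-fold. Its group means were 0.50 ± 0.05 (SD of 3 arrays) in P1 tail, 0.37 ± 0.19 in P5 tail, -0.19 ± 0.12 in P1 back and -0.30 ± 0.11 in P5 back, and neighbours within a site differed by less than the larger of their SDs.

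The 3 Hoxc5 probe sets had the same direction but not the same size. With p-values adjusted over all probe sets, 1439885_at differed by 1.00 (adjusted p = 0.0337) at P1 and 0.95 (adjusted p = 0.0304) at P5, and 1456301_at by 0.54 (adjusted p = 0.0369) and 0.57 (adjusted p = 0.0203). The remaining probe set, 1450832_at, did not pass at either age, with 0.51 (adjusted p = 0.232) and 0.49 (adjusted p = 0.188). Without the cartilage-high arrays, which leaves 1 array in P1 back, the gene's difference was 0.82 at P1 and 0.65 at P5, and both calls were lost.

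Hoxc6, which with Hoxc8 marks the level of the forelimb and thorax in the embryo, had no difference past the threshold. It read -0.19, 0.01 and 0.09 in P1 tail and -0.13, 0.01 and -0.19 in P1 back. At P5 it read 0.29, 0.01 and 0.34 in the arrays labelled tail and -0.05, -0.01 and -0.02 in those labelled back. The P1 groups overlapped, whereas at P5 the lowest array labelled tail lay just above the highest labelled back. The difference was 0.07 (95% confidence interval -0.17 to 0.32, adjusted p = 0.832) at P1 and 0.24 (-0.01 to 0.49, adjusted p = 0.262) at P5. Its 3 probe sets differed by -0.04, 0.19 and 0.08 at P1 and by 0.18, 0.32 and 0.22 at P5, none past the threshold.

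Hoxc9 encodes a factor of the thoracic region, where it restrains forelimb-type programmes in motor neurons. Its values were close to 0 on most arrays, at -0.00, 0.01 and -0.01 in P1 tail and 0.24, 0.07 and 0.01 in P1 back. The P5 values were -0.18, -0.31 and 0.16 in the arrays labelled tail and -0.00, 0.00 and -0.12 in those labelled back. P1 arrays labelled back lay marginally above those labelled tail, and the P5 groups overlapped. The difference was -0.11 (95% confidence interval -0.37 to 0.15, adjusted p = 0.751) at P1 and -0.07 (-0.33 to 0.19, adjusted p = 0.792) at P5. For the signal of its 1 probe set, these intervals exclude a site difference as large as that of Hoxc8 or Hoxc4 at either age. Whether that probe set detects or responds to the transcript could not be assessed.

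Hoxc10 is a posterior member, known from the lumbar region and the hindlimb. It read -0.10, -0.65 and -0.11 in P1 tail against 0.64, 0.28 and 0.51 in P1 back. At P5 the values were -0.36, -0.22 and 0.00 in the arrays labelled tail against 0.05, -0.00 and 0.32 in those labelled back. All P1 arrays labelled back lay above those labelled tail, while the P5 groups overlapped slightly near 0. Hoxc10 differed by -0.77 (SE 0.16, adjusted p = 0.0184) at P1, or 1.70-fold, and by -0.32 (95% confidence interval -0.67 to 0.04, adjusted p = 0.311) at P5. Group means ran from P1 back at 0.48 ± 0.18 (SD of 3 arrays) through P5 back at 0.12 ± 0.17 and P5 tail at -0.19 ± 0.18 to P1 tail at -0.29 ± 0.31.

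The P1 call for Hoxc10 depended on single arrays. It was lost without P1 tail replicate 5 (-0.59, adjusted p = 0.0504), P1 back replicate 1 (-0.68, adjusted p = 0.0883) or P1 back replicate 6 (-0.75, adjusted p = 0.0796). The arrays labelled P1 back replicates 1 and 6, at 0.64 and 0.51 for Hoxc10, were those with the high cartilage means, and replicate 5, with a cartilage mean of 0.06, read 0.28. Without the 3 cartilage-high arrays, which leaves 1 array in P1 back, the difference was -0.57 and the call was lost. The part of cartilage in the Hoxc10 difference was not tested.

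Hoxc13, the most 5′ member, read -0.47, -0.44 and -0.05 in P1 tail and 0.07, -0.08 and -0.01 in P1 back. The P5 values were 0.55, 0.01 and -0.05 in the arrays labelled tail and 0.80, 0.76 and 0.81 in those labelled back. The P5 arrays labelled back were the highest 3 of all 12, and the P1 groups overlapped. The site difference was -0.31 (95% confidence interval -0.65 to 0.02, adjusted p = 0.392) at P1 and -0.62 (SE 0.16, adjusted p = 0.0301) at P5, or 1.54-fold. Group means were 0.79 ± 0.03 (SD of 3 arrays) in P5 back, 0.17 ± 0.33 in P5 tail, -0.01 ± 0.07 in P1 back and -0.32 ± 0.23 in P1 tail. The P5 call was lost without P5 tail replicate 3 (-0.54, adjusted p = 0.0811) or replicate 4 (-0.51, adjusted p = 0.0639), and without P5 back replicate 1 (-0.62, adjusted p = 0.0911), 2 (-0.64, adjusted p = 0.0825) or 3 (-0.61, adjusted p = 0.0944). It was also lost without the 3 cartilage-high arrays (-0.61), with trend and robust variances (adjusted p = 0.0777) and with only the 6 P5 arrays in the fit (adjusted p = 0.099). It passed under 13 of 23 alternatives in all, which include a t-test without adjustment.

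**Figure D2:**
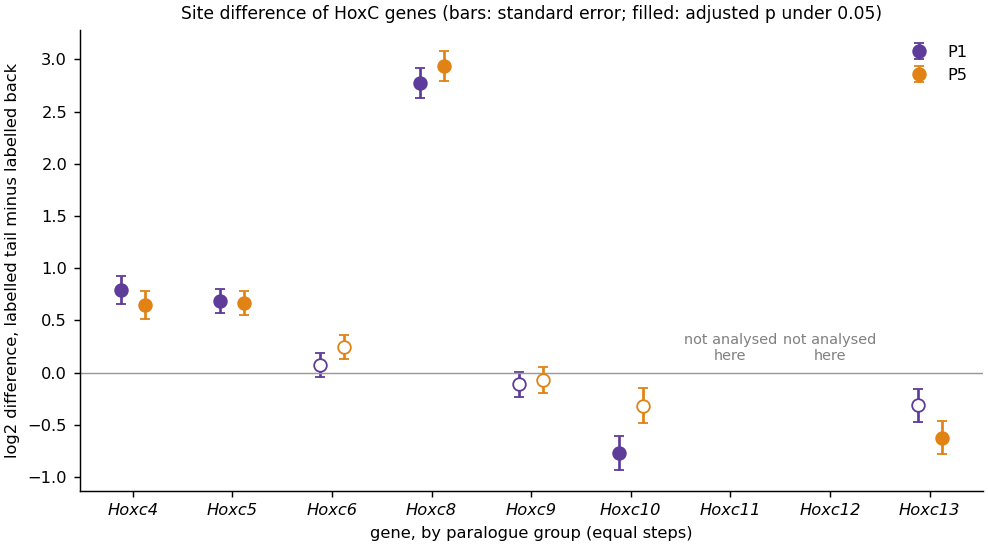
Site difference (y axis, log2, labelled tail minus labelled back) of each HoxC gene in the order of paralogue groups (x axis) at P1 and P5, with bars of 1 standard error and filled points where the adjusted p is under 0.05. Hoxc8 stands at 2.78 and 2.93, whereas its neighbours Hoxc6 and Hoxc9 lie between -0.11 and 0.24.

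Across the cluster the site difference did not pass gradually from 3′ to 5′. Its rank correlation with paralogue number was -0.75 at both ages over the 7 members, which share the same 12 arrays, and Hoxc8 stood outside any steady slope. Neighbouring genes were compared directly by an exact permutation test, two-sided, of the difference between their site differences, with the site labels permuted within each age (400 arrangements, smallest possible p = 0.005). These comparisons, and the comparisons with other clusters described next, were picked once the values were known, and p-values were adjusted over the 13 tests. The tests use the values of the single-gene differences again, so their p-values are no separate support for those differences. The size of a difference also depends on how a probe set responds, so that unequal sizes between genes are differences on this array's scale.

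Hoxc8 exceeded Hoxc6 by 2.70 (mean over both ages) and Hoxc9 fell below Hoxc8 by -2.95, each with p = 0.005 by exact permutation (adjusted p = 0.00929). On the 3′ side, Hoxc6 was below Hoxc5 by -0.52 (exact permutation p = 0.005, adjusted p = 0.00929). Hoxc5 and Hoxc4 differed by -0.04 (exact permutation p = 0.74, adjusted p = 0.74), that is by less than the spread of either gene. On the 5′ side, Hoxc10 was below Hoxc9 by -0.45 (exact permutation p = 0.015, adjusted p = 0.0217). Hoxc13 and Hoxc10, which have Hoxc12 and Hoxc11 between them, differed by 0.07 (exact permutation p = 0.71, adjusted p = 0.74). This was a mean of opposite values, 0.45 at P1 and -0.31 at P5.

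Genes of the same paralogue group in the HoxA, HoxB and HoxD clusters share the ancestry and much of the positional role of a HoxC gene. Of the 30 genes listed, 26 were measured, of which 3 were higher in the arrays labelled tail and 9 were lower at P1, against 5 and 9 at P5. Among the 15 measured in paralogue groups 1 to 8, 3 were higher and 0 lower by limma at P1, and 0 passed the adjusted t-test. At unadjusted p under 0.05, 9 of the 15 were higher and 0 lower at P1, against 1154 and 1476 of all 18193 genes. At P5, 5 of these 15 were higher and 0 lower, and the median difference was 0.34 at P1 and 0.44 at P5. Among the 11 of groups 9 to 13, 9 were lower and 0 higher at each age, with medians of -1.36 and -1.31 against -0.04 and -0.02 for all genes. The head-to-tail order described above would place these genes higher in tail skin, so the signs are those of the labels only. The largest differences were those of Hoxd10 (-3.32 at P1 and -3.05 at P5), Hoxd11 (-3.09 and -3.28), Hoxa11 (-2.95 and -2.52) and Hoxb13 (-2.04 and -1.85).

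**Figure D3:**
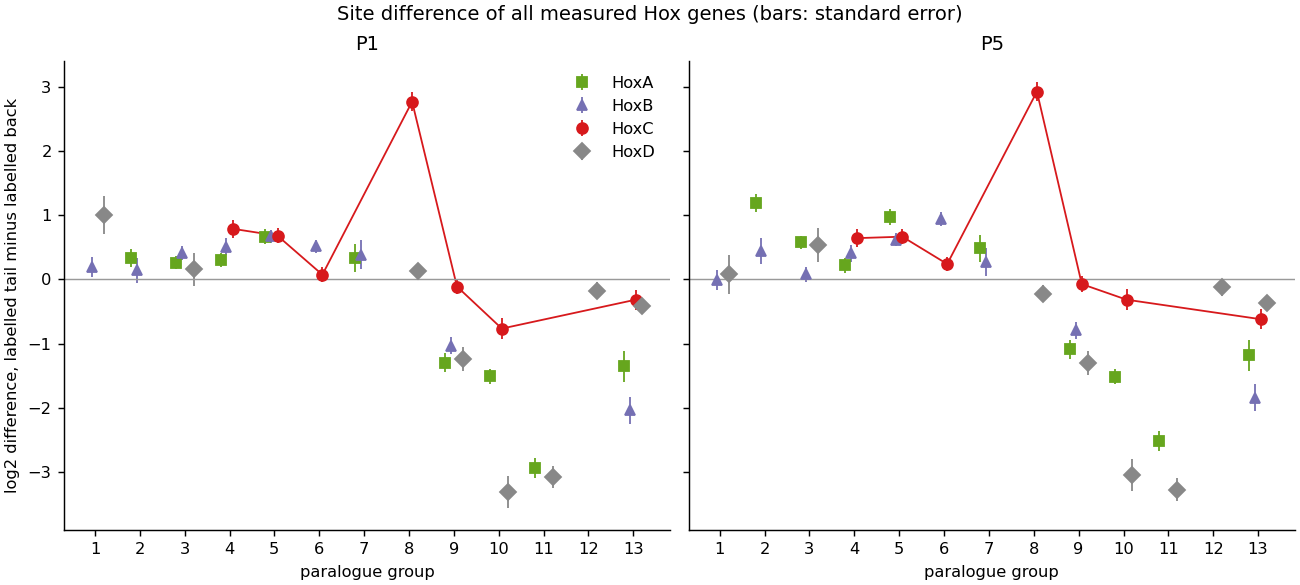
Site difference (y axis, log2, labelled tail minus labelled back) of all 33 measured Hox genes by paralogue group (x axis) at P1 and P5, with bars of 1 standard error and the HoxC genes joined by a line. The HoxC genes of groups 9 and 10 lie above their paralogues, and Hoxc8 at 2.78 and 2.93 lies above every other Hox gene.

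The measured HoxC genes were compared with their paralogues group by group. Hoxc8 exceeded Hoxd8, the one paralogue measured, by 2.90 (exact permutation p = 0.005, adjusted p = 0.00929), and Hoxd8 itself differed by 0.13 (adjusted p = 0.729) at P1 and -0.22 (adjusted p = 0.382) at P5. Hoxc9 exceeded the mean of Hoxa9, Hoxb9 and Hoxd9 by 1.04 (exact permutation p = 0.005, adjusted p = 0.00929). Those paralogues were each lower in the arrays labelled tail, by -1.30, -1.04 and -1.24 at P1 and -1.09, -0.79 and -1.31 at P5. Hoxc10 likewise exceeded the mean of Hoxa10 and Hoxd10 by 1.81 (exact permutation p = 0.005, adjusted p = 0.00929), with Hoxa10 at -1.51 and -1.52. For Hoxc13 the excess over Hoxa13, Hoxb13 and Hoxd13 was 0.73 (exact permutation p = 0.005, adjusted p = 0.00929), with Hoxa13 at -1.36 and -1.19. Hoxd13, at -0.42 (adjusted p = 0.0744) and -0.36 (adjusted p = 0.0879), lay close to Hoxc13, and passed at both ages without P5 tail replicate 4 (adjusted p = 0.0461 and 0.0293).

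Among the 3′ members, Hoxc4 exceeded the mean of Hoxa4 and Hoxb4 by 0.36 (exact permutation p = 0.02, adjusted p = 0.026), and Hoxc5 differed from the mean of Hoxa5 and Hoxb5 by -0.06 (exact permutation p = 0.58, adjusted p = 0.685). Hoxa5 was higher in the arrays labelled tail by 0.67 and 0.98, and Hoxb5 by 0.67 and 0.62, beside 0.68 and 0.67 for Hoxc5. Hoxc6 lay below Hoxb6 by -0.57 (exact permutation p = 0.01, adjusted p = 0.0163), since Hoxb6 was higher in the arrays labelled tail by 0.52 and 0.95 while Hoxc6 was not. Without the 3 cartilage-high arrays, which leaves 1 array in P1 back, the P1 calls of Hoxa5 (0.60), Hoxb5 (0.83), Hoxb6 (0.63), Hoxa9 (-1.26), Hoxb9 (-0.94), Hoxd9 (-1.36) and Hoxa13 (-1.28) were lost at differences of similar size (adjusted p 0.063 to 0.308), as was the P5 call of Hoxa13 (-1.14, adjusted p = 0.0914). The P1 call of Hoxb6 was also lost without P1 back replicate 5 (0.46, adjusted p = 0.0762), and the probe sets of Hoxa10 disagreed in size, with -2.44 to -0.59 at P1 over the alternatives.

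Age was then compared within each site. In the arrays labelled back, Hoxc13 rose from P1 to P5 by 0.80 (SE 0.16, adjusted p = 0.0108), a 1.74-fold rise, and was the only member past the threshold. This made 1 of 7 higher, against 2.22% of all genes, and 0 lower, against 2.03%. At unadjusted p under 0.05, limma gave 1 higher and 1 lower, against 1204 and 1237 of all 18193 genes. The lower member was Hoxc10 (-0.36, adjusted p = 0.369). The methods' t-test gave 2, against 3603 of all genes, or 0 after adjustment, against 10. Every P5 array labelled back lay above every P1 array labelled back for Hoxc13, and the call was lost without P1 back replicate 5 (0.76, adjusted p = 0.0512). Without the 3 cartilage-high arrays, which leaves 1 array in P1 back, the rise was 0.86. The call was lost there too, as were calls over all genes. Hoxc8 did not move with age in the arrays labelled back beyond an interval of -0.31 to 0.31 around -0.0025.

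In the arrays labelled tail no member passed the threshold with age. By limma 0 were higher, against 3.34% of all genes, and 0 lower, against 1.96%. At unadjusted p under 0.05, 1 member was higher and 1 lower, against 2151 and 1606 of all 18193 genes. The methods' t-test gave 0 members, against 1845 of all genes. By limma the higher member was Hoxc13 at 0.49 (adjusted p = 0.0938) and the lower was Hoxc4 at -0.43 (adjusted p = 0.0964), each nearest to the threshold. Hoxc4 passed without P1 tail replicate 5 (-0.54, adjusted p = 0.0481) and Hoxc13 without P5 tail replicate 4 (0.60, adjusted p = 0.0459). The age differences of the other 5 members lay between -0.13 and 0.24.

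No member's site difference changed with age past the threshold. In the interaction of site and age, 0 of 7 passed by limma, against 2.87% of all genes. At unadjusted p under 0.05, 0 of 7 passed, where 1521 of all 18193 genes were higher and 1094 lower. Hoxc10 had the largest change, 0.45 (95% confidence interval -0.05 to 0.95, adjusted p = 0.412), followed by Hoxc13 at -0.31 (-0.79 to 0.17, adjusted p = 0.591). For Hoxc8 the change was 0.16 (-0.28 to 0.60, adjusted p = 0.804), small beside a site difference of 2.78. A site effect that passed at P1 alone, as for Hoxc10, or at P5 alone, as for Hoxc13, was thus not shown to differ between the ages.

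Because Hoxc13 acts in the follicle, its values were set beside a list of 17 hair shaft and matrix genes, 16 of them measured and none of them a Hox gene. In the arrays labelled back 14 of the 16 rose from P1 to P5 and 0 fell, with a median difference of 2.12. Krt31, Krt83, Krt33a and Krt82, keratins of the hair shaft, rose most, by 3.08, 3.07, 3.04 and 2.97. Without the 3 cartilage-high arrays, which leaves 1 array in P1 back, these rises were 2.53 to 3.02 and their calls were lost. In the arrays labelled tail 7 of the 16 rose and 0 fell, with a median of 0.96. The site comparison at P5 found 7 of the 16 lower in the arrays labelled tail and 0 higher, with a median of -1.04. At P1 0 passed by limma or the adjusted t-test. At unadjusted p under 0.05, 2 were higher and 2 lower at P1, against 1154 and 1476 of all 18193 genes.

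**Figure D4:**
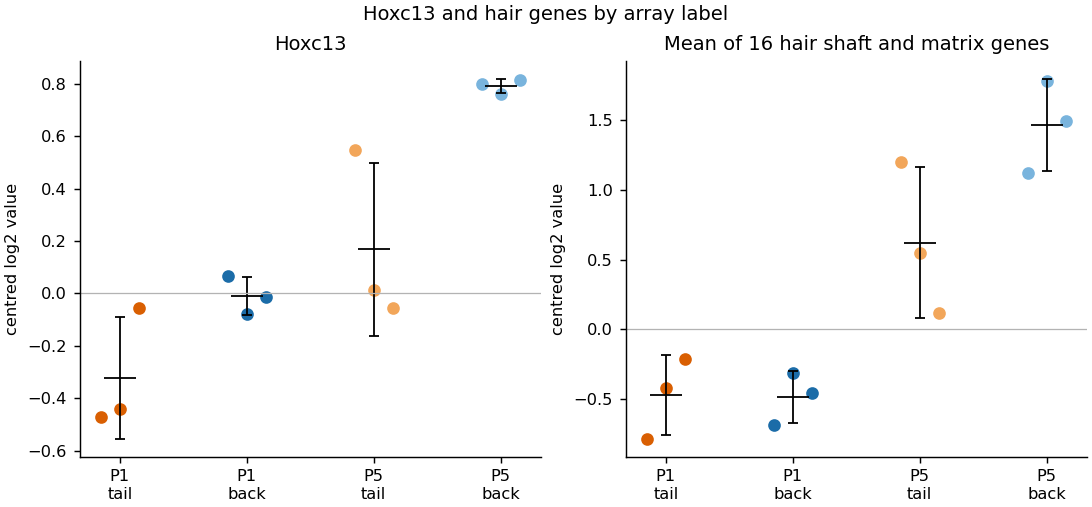
Centred log2 value of Hoxc13 (left) and mean centred log2 value of 16 hair shaft and matrix genes (right) on each array, by label. Points are arrays, lines are group means and bars are 1 SD of 3 arrays. In both panels the P5 back arrays have the highest group mean, while the order of arrays within a group differs between the panels in P1 back and P5 back.

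Hoxc13 and the mean of the hair genes kept the same order of arrays in both groups labelled tail but not in those labelled back. Hoxc13 varied less in the latter (SD 0.07 in P1 back and 0.03 in P5 back) than in P1 tail (0.23) and P5 tail (0.33). In P1 tail, Hoxc13 read -0.47, -0.44 and -0.05 and the hair means were -0.78, -0.42 and -0.21 in replicates 4, 5 and 6. Among the arrays labelled P5 tail, replicate 2 had the highest Hoxc13 value, 0.55, and the highest hair mean, 1.20, ahead of replicate 3 (0.01 and 0.55) and replicate 4 (-0.05 and 0.12), and it was also the array with the wide spread of values noted above. In P1 back the order was the reverse, with Hoxc13 at 0.07, -0.08 and -0.01 and hair means of -0.68, -0.31 and -0.46 in replicates 1, 5 and 6. In P5 back, replicate 2 had the highest hair mean, 1.78, and the lowest Hoxc13 value, 0.76. The hair means were 1.12 to 1.78 in P5 back, -0.78 to -0.21 in P1 tail and -0.68 to -0.31 in P1 back. Of the epidermal list of 14 genes, 7 were lower and 0 higher from P1 to P5 in the arrays labelled back, with a median of -0.77, and 3 were higher and 0 lower in those labelled tail, with a median of 0.55. The part of hair follicle content in the Hoxc13 differences was not tested.

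Genes that act with or upon Hox clusters were taken from lists. Among the Hox cofactors, homeodomain partners that bind DNA with Hox proteins, 8 of 9 were measured. Pknox2 was lower in the arrays labelled tail at P1 (-0.73, adjusted p = 0.00532), a call lost without the 3 cartilage-high arrays (-0.66, adjusted p = 0.392), and Pbx3 was higher at P5 (0.77, adjusted p = 0.0197). The Pbx3 call was lost without P5 tail replicate 2 (0.69, adjusted p = 0.0599), P5 back replicate 1 (0.77, adjusted p = 0.0625) or P5 back replicate 3 (0.71, adjusted p = 0.0822).

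Polycomb proteins keep Hox genes repressed and trithorax proteins keep them active. Of 25 measured genes of these groups 0 passed by limma at either age, with 1 higher and 0 lower at P1 and 2 higher and 1 lower at P5 at unadjusted p under 0.05, and 0 by the adjusted t-test. Their median site differences were -0.02 and 0.01. The genes that flank the HoxC cluster on its chromosome showed no site difference past the threshold either, with 0 of 15 by limma and the adjusted t-test at both ages, and 0 at P1 and 1 at P5 at unadjusted p under 0.05. The medians of the flanking genes were -0.04 and -0.0045. Among 11 upstream axial signals, such as Cdx and retinoic acid pathway genes, 0 passed by limma or the adjusted t-test at either age, with 2 at P1 and 3 at P5 at unadjusted p under 0.05. Beside these list counts, 1154 of all 18193 genes were higher and 1476 lower at P1 at unadjusted p under 0.05. At P5 these were 1935 and 1754.

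The genes whose values followed a member most closely over the 12 arrays were ranked by Pearson correlation, as a description, since all arrays share the same sites and ages. Emx2, a homeobox gene of urogenital and forebrain development, was nearest to Hoxc8 (r = 0.991), followed by Wls, which is needed for Wnt secretion (r = 0.979), and the imprinted gene Zim1 (r = 0.978). Emx2 differed by 2.83 at P1 and 3.11 at P5, beside 2.78 and 2.93 for Hoxc8. Zim1 was also nearest to Hoxc5 (r = 0.961), before Adcy7 (r = 0.951) and Ptpro (r = 0.942). Hoxc4 was followed by Mef2c, a transcription factor of muscle and neural crest (r = 0.971), the imprinted gene Peg3 (r = 0.969) and Vgll3 (r = 0.966).

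Hoxc10 and Hoxc13 were less closely followed than Hoxc8, as were Hoxc4 and Hoxc5. For Hoxc10 the nearest genes were Cdh26 (r = 0.921), Capn6 (r = 0.910) and P4ha3, a collagen prolyl hydroxylase (r = 0.900). For Hoxc13 they were Cybrd1 (r = 0.976), Prr5l (r = 0.960) and Ddn (r = 0.949).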

How the data were processed

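RNA of 12 samples was hybridised to single-colour Affymetrix MG430.2A arrays. The authors normalised the arrays by RMA, as named in the submitters' processing notes, in GeneSpring, and the deposited values are log2 signals centred on each probe set's median over the arrays (largest absolute median 5e-07). The log base and the centring are not given in the sources used here and were read from the values. Column medians ran from -0.0232 to 0.0141. Without levels, the methods' removal of the lowest 20% could not be applied and precision is limited by the number of arrays.

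Of 45101 probe sets 64 controls were left out. Of the rest, 34945 had 1 gene symbol, 932 several and 9160 none, and 34741 were matched to RefSeq genes (GRCm38.p6). The mean of its probe sets with 1 symbol gave the value of each of 18193 genes (several probe sets for 9010). The linear model of limma 3.58.1, run under R 4.3.3 with moderated variances, held a mean for each of 4 groups over all 12 arrays, with p-values adjusted over all genes (Benjamini-Hochberg, threshold 0.05), for site at each age, age at each site and their interaction. The fit was tested on simulated data. The named genes were all members, up to 4 genes with the largest difference per list, and the 3 nearest genes by correlation for members past the threshold in a site comparison. Paralogues, Emx2 and Adipoq were named with their values after these were seen. The members and lists were chosen with earlier results of these data known. Alternatives covered scaling, variance model, array weights, replicate block, arrays fitted, probe set choice, test and arrays left out.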

Additional observations from a re-analysis of the deposited data

Results flagged for a closer look

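No HoxC gene had a site difference that changed with age past the threshold. For the genes outside the cluster, site differences were followed under the alternatives, but their changes with age are from the main fit only. Among these genes, the site difference of Hoxa2, a Hox gene of the hindbrain region, was larger at P5 (1.19) than at P1 (0.34). The change was 0.85 (SE 0.20, adjusted p = 0.0353 by limma). The difference of Krt2 was smaller in size at P5 (-3.96) than at P1 (-7.57), a change of 3.61 (SE 0.40, adjusted p = 0.00079). For Adipoq, the adipocyte hormone adiponectin, the difference was 5.23 at P1 and 0.79 at P5, a change of -4.44 (SE 0.40, adjusted p = 0.000372).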

How the results depend on the processing

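Hoxc8 passed at P5 under all 23 alternatives (adjusted p 2.23e-07 to 0.0365) and at P1 under 22 of 23 (5.87e-09 to 0.059). Of 770 values of single members under alternatives, 711 kept direction and side of the threshold, 32 lost the call, 3 gained one and 24 turned in sign, all 24 in differences that had not passed. Of 1090 values of other named genes, 1015 kept both, 62 lost the call, 7 gained one and 6 turned. The number of members called was 4 at P1 and 4 at P5. Leaving out each array in turn gave 3 to 4 at P1, 2 to 4 at P5, 0 to 1 with age in back and 0 to 1 with age in tail. After adjustment the methods' t-test called 0 at P1, 1 at P5 and 0 with age in back, against 6, 24 and 10 of all genes. Before adjustment it called 2 with age in back, against 3603 of all 18193 genes. Without the 3 cartilage-high arrays, an alternative chosen after seeing the data that leaves 1 array in P1 back, assumed to vary like the other groups, the counts were 1 at P1, 1 at P5 and 0 with age in back. Samples with the same number within an age had deviations correlated at -0.02 to 0.26 (4 pairs) against -0.34 to 0.38 for different numbers (14 pairs), so the numbers were not treated as pairs. With the replicate number as a block the counts were 1 at P1 (Hoxc8) and 2 at P5 (Hoxc4 and Hoxc8).

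Values that turned in sign were as follows. With the replicate block, the interaction was 0.075 for Hoxc4, 0.011 for Hoxc5 and -0.14 for Hoxc9, and at P1 Hoxd8 differed by -0.050 and Pbx3 by -0.0024. Without the cartilage-high arrays, Hoxc6 differed by -0.039 at P1 and by -0.041 with age in back, Hoxc5 by 0.045 with age in back, and the Hoxc9 interaction was -0.038. Array weights gave Hoxc8 0.036 with age in back and an interaction of -0.022. The Hoxc5 interaction was 0.028 from its probe set with the lowest p, and Hoxd8 at P1 was -0.071 both without probe sets of shared sequence and from its most variable probe set. Leaving out single arrays gave Hoxc9 at P5 -0.21 to 0.027, Hoxc8 with age in back -0.10 to 0.059, Hoxc10 with age in tail -0.086 to 0.19, Pbx3 at P1 -0.11 to 0.23, and interactions of -0.26 to 0.0077 for Hoxc4, -0.11 to 0.084 for Hoxc5 and -0.095 to 0.14 for Hoxc9. The cause was not tested.

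Over all genes, the count of calls was 722 at P1 (6 by the adjusted t-test to 3650 with array weights), 1257 at P5 (24 to 2136), 773 with age in back (10 to 2136), 964 with age in tail (0 to 1685) and 522 for the interaction (44 without the cartilage-high arrays to 767). No replicate block could be fitted for the age comparisons, which share 1 number per site, and the filter on dim probe sets was not run because the values hold no levels.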
